A study of Mus musculus with 3 samples.

Results

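The arterial endothelial cells described here are 382 of the 5833 cells of the series, taken from 1734 endothelial cells. An endothelial cell had a mean natural log (ln) value of at least 0.5 over Pecam1, Cdh5, Egfl7, Emcn and Tie1, above its means over 5 fibroblast and 5 macrophage genes. Each endothelial cell was then given the type whose 4 genes had the highest mean z-score, if that mean was above 0. The arterial genes were Hey1, Sema3g, Gja4 and Stmn2, and the other types were capillary (606 cells, by Car4, Timp4, C1qtnf9 and Ccdc85a), Lrg1 Col13a1 (304 cells, by these genes with Cyp26b1 and Samd5) and endocardial (132 cells, by Npr3, Nrg1, Smoc1 and H19). A further 310 endothelial cells had no mean above 0, and the 1352 cells outside the arterial type are called other endothelial cells.

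The study asked what marks cells of the adult mouse heart that carry the RNA-binding protein Lin28 on their surface. Interstitial cells were freed by collagenase II digestion, cleared of cardiomyocytes by a slow spin, and sorted on surface Lin28 and on surface cKit, the receptor for stem cell factor. Each sort gave 1 droplet library: Lin28+/cKit+ (1176 cells), Lin28+/cKit- (681 cells) and Lin28-/cKit- (3976 cells). No agent, genetic change or disease is named for any library, and how many mice there were, and of what age, sex and strain, is not given in the sources used here. Since each group is a single library, groups have no replicates and are compared without a test. The intervals below are 95% intervals of counting error only, and a difference between libraries cannot be told apart from a difference between sorts.

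Endothelial cells line all vessels, and those of arteries differ from those of capillaries and veins in the genes they use. Notch signalling is central to this: ligands such as Dll4 and Jag1 on one cell bind receptors such as Notch1 on its neighbour, proteases then cut the receptor, and the freed fragment acts with the DNA-binding factor RBPJ on targets that include the Hey and Hes genes. Arterial endothelium is also known for SoxF transcription factors, ephrin-B2 and connexins that couple its cells.

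Arterial cells held 574938, 223488 and 936438 UMIs (unique molecular identifiers, one for each captured transcript) in the Lin28+/cKit+, Lin28+/cKit- and Lin28-/cKit- libraries, an order kept for every set of 3 values below. A cell had a median of 5362.5, 6425 and 3568 UMIs, against 5563, 7850 and 4174 UMIs for other endothelial cells. The Lin28+/cKit+ and Lin28-/cKit- libraries shared 8 cell barcodes, the 2 Lin28+ libraries shared 1, and the remaining pair shared 0. The libraries stood apart in what surrounded these cells: markers of fibroblasts, summed and scaled to CPM (UMIs per 1000000 UMIs of the group of cells), came to 738, 3321 and 49317 CPM over whole libraries and 50.4, 483 and 2582 CPM in the arterial cells. Markers of macrophages came to 25398, 21012 and 376 CPM over whole libraries and 972, 653 and 33.1 CPM in the arterial cells.

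Some of these cells also carried many transcripts of another vessel cell. In 8, 9 and 18 arterial cells of the 3 libraries at least 10 UMIs came from mural markers (those of pericytes and smooth muscle, 8, 6 and 15 cells), lymphatic markers (0, 2 and 1 cells) or endocardial markers (0, 1 and 2 cells). These 35 cells are called mixed. Their median was 6720 UMIs, against 3806 UMIs in the other 347 cells. Without them the summed mural level was 196, 159 and 174 CPM, against 1028, 1776 and 1049 CPM with them and 316, 459 and 158 CPM in other endothelial cells, where 13, 22 and 11 cells also carried at least 10 mural UMIs. Leaving out the mixed cells changes the arterial side alone, so for mural genes the ratio to other endothelial cells is also given without the mural-rich cells of both classes. Values that move with the mixed cells are given with and without them.

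Arterial cells made up 21.1% of the endothelial cells of the Lin28+/cKit+ library (100 of 473, Clopper-Pearson 95% interval 17.5 to 25.1%), 12.7% of those of the Lin28+/cKit- library (35 of 276, 8.99 to 17.2%) and 25.1% of those of the Lin28-/cKit- library (247 of 985, 22.4 to 27.9%). The share was lowest in the Lin28+/cKit- library, whose interval did not reach the other two. Without the mixed cells the shares were 19.8%, 9.74% and 23.7%, and with the rule applied to cells thinned to 1000 UMIs they were 21.9%, 11.6% and 23.9%. A separate run of the thinning, used for the alternatives at the end, gave 20.9%, 12.4% and 22.6%. With z-scores taken within each library the shares were 23.3%, 16.3% and 23.5%, a smaller gap, for which no interval was computed. Capillary cells ran differently, at 41.6%, 44.2% and 29.1%. As shares of all cells, which the sort and the number of fibroblasts set, arterial cells made up 8.50%, 5.14% and 6.21%.

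**Figure D1:**
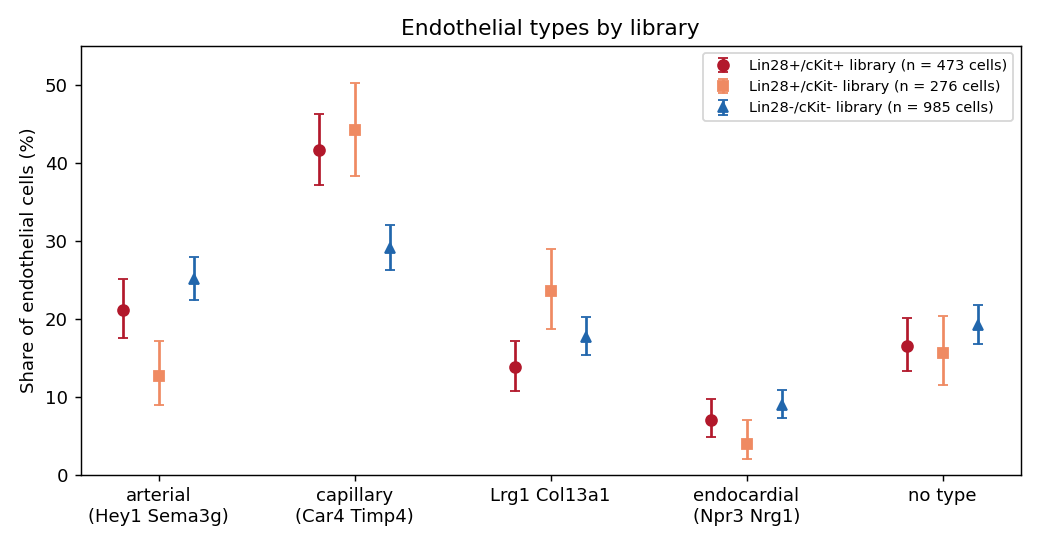
Share of endothelial cells (%, vertical axis) assigned to each type by the rule, with points for the Lin28+/cKit+, Lin28+/cKit- and Lin28-/cKit- libraries and bars for exact 95% binomial intervals. The arterial share is lowest in the Lin28+/cKit- library (12.7%), while capillary cells are the largest type in all 3 libraries.

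The members differ widely in how firmly the rule holds them. All 4 rule genes were detected in 55 cells (14.4%), 3 in 88 cells (23.0%), 2 in 131 cells (34.3%) and 1 in 108 cells (28.3%), and 61 cells were members through Stmn2 alone. Median depth followed this order, at 5725, 4406, 3989 and 3007.5 UMIs for 4, 3, 2 and 1 genes. The member nearest the threshold had a mean z-score of 0.00511, from 1 Stmn2 UMI of 1998 UMIs, and the nearest cell outside had -0.00134, from 2 Stmn2 UMIs of 4118. A further 198 endothelial cells had an arterial mean z-score above 0 but a higher mean for another type.

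The 4 genes that chose the cells are given as a description, with no test. Hey1, a transcriptional repressor and target of Notch (mm10, GENCODE vM21, chromosome 3, 8663359-8667256, minus strand), was at 404, 407 and 355 CPM in arterial cells (232, 91 and 332 UMIs) and 31.4, 24.8 and 17.7 CPM in other endothelial cells. Sema3g, a secreted class 3 semaphorin (chromosome 14, 31217860-31230352, plus strand), was at 190, 161 and 221 CPM in arterial cells and 11.45, 4.56 and 6.77 CPM in other endothelial cells. Gja4, the gap junction protein connexin 37 (chromosome 4, 127311421-127314039, minus strand), was at 172, 157 and 175 CPM in arterial cells and 14.0, 8.11 and 16.8 CPM in other endothelial cells. Endocardial cells stood out among the other types for Gja4, at 99.8, 82.7 and 75 CPM, against 2.53, 3.07 and 0.861 CPM in capillary cells. Stmn2, a microtubule-destabilising protein best known from neurons (chromosome 3, 8509360-8561606, plus strand), was at 682, 577 and 825 CPM in arterial cells and 87.8, 61.3 and 120 CPM in other endothelial cells. Of the 4 it was the least confined to the arterial cells, at 7.77, 9.41 and 6.89 times the other endothelial level, against 12.9, 16.4 and 20.1 times for Hey1.

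Cells with at least 1 Hey1 UMI were 69.0%, 65.7% and 57.1% of arterial cells and 12.3%, 11.2% and 6.10% of other endothelial cells. In fibroblasts and macrophages, where Hey1 would not be looked for, the shares were 1.47%, 2.06% and 4.14%. The macrophages of the Lin28+ libraries had medians of 9556 and 12267 UMIs and the fibroblasts of the Lin28-/cKit- library 10154 UMIs, more than the arterial cells. With every cell thinned to 1000 UMIs, Hey1 was detected in 33.3%, 26.5% and 28.2% of arterial cells, in 1.94%, 3.46% and 1.40% of other endothelial cells and in 0%, 0.297% and 0.425% of fibroblasts and macrophages. The 0% came from 642 cells and allows a share of up to 0.573% (upper 95% bound).

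Arterial markers that played no part in choosing the cells were higher in them for the most part. Of 12 such markers, 8 were above the other endothelial level in all 3 libraries, 1 in 2 libraries, 1 in 1 library and 2 in none. A stricter description asked for at least 2-fold in the same direction in all 3 libraries with at least 20 UMIs in each library's pair. It was met upward by 62 of 8023 measured genes (0.773%) and downward by 53 (0.661%), and among the 8003 genes outside the rule by 58 (0.725%) and 48 (0.6%). By it 3 of 10 measured markers were higher and 0 lower, with a median log2 ratio of 1.01, against -0.02 over all genes. Since the cells were chosen by this same contrast, these counts describe the class and test nothing.

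Among the transcription factors, Sox17, a SoxF factor of arterial endothelium (chromosome 1, 4490931-4497354, minus strand), was at 367, 304 and 341 CPM in arterial cells and 105, 107 and 84.8 CPM in other endothelial cells. Its ratio was 3.503 (95% interval 2.90 to 4.23), 2.83 (2.12 to 3.74) and 4.02 (3.42 to 4.73). Mecom, a zinc finger transcription factor, was at 224, 251 and 283 CPM in arterial cells and 106, 120 and 124 CPM in other endothelial cells. Both genes passed 2-fold in every library, and were the 2 of 22 measured endothelial transcription factors that did so, with 0 lower and a median log2 ratio of 0.13. Sox18, another SoxF factor, was at 277, 474 and 229 CPM in arterial cells and 163, 288 and 122 CPM in other endothelial cells, short of 2-fold. Hey2, the close relative of Hey1, was hardly seen, with 0, 0 and 6 UMIs in arterial cells and 10, 2 and 22 UMIs in other endothelial cells. For a count of 0 the floor of 3 UMIs used for ratios, which is not a 95% bound, stands at 5.22 CPM in the arterial cells of the Lin28+/cKit+ library. In those of the Lin28+/cKit- library it stands at 13.4 CPM.

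Of 6 measured Notch ligands and receptors, none passed 2-fold in all 3 libraries, and their median log2 ratio was 0.64. Dll4, a ligand, was at 223, 188 and 163 CPM in arterial cells and 124, 106 and 78.9 CPM in other endothelial cells. Jag1, another ligand, was at 24.4, 62.6 and 41.6 CPM in arterial cells and 15.3, 28.9 and 24.7 CPM in other endothelial cells, on 14, 14 and 39 arterial UMIs. Notch1, a receptor, was at 330.5, 304 and 324 CPM in arterial cells and 186, 188 and 193 CPM in other endothelial cells. Among these, endocardial cells had 346, 312 and 316 CPM of Notch1, close to the arterial level. The targets and modulators of Notch were listed without the rule gene Hey1. Their median log2 ratio was -0.10, with 0 of 9 higher and 1 lower. Nrarp, a target that feeds back on the pathway, was at 181, 67.1 and 119 CPM in arterial cells and 88.2, 80.1 and 63.0 CPM in other endothelial cells, above them in the Lin28+/cKit+ and Lin28-/cKit- libraries. Hes1, a target not special to arteries, was at 370.5, 600 and 285 CPM in arterial cells and 450, 590 and 320 CPM in other endothelial cells. The lower gene was Lfng, which modifies Notch receptors with sugars, at 3, 2 and 7 UMIs in arterial cells and 44, 69 and 66 UMIs in other endothelial cells.

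Connexins, ephrins and guidance genes followed. Gja5, connexin 40, had 20, 4 and 18 UMIs in arterial cells (34.8, 17.9 and 19.2 CPM) and 6, 0 and 1 UMIs in other endothelial cells, too few for the 2-fold description. Gja1, connexin 43, was at 165, 210 and 179 CPM in arterial cells and 95.004, 107 and 98.9 CPM in other endothelial cells. Efnb2, ephrin-B2, was at 217, 268 and 207 CPM in arterial cells and 102, 106 and 105 CPM in other endothelial cells, with ratios of 2.13, 2.54 and 1.98. Its receptor Ephb4, the venous partner in the textbook pair, was at 92.2, 112 and 114 CPM in arterial cells and 109, 144 and 115 CPM in other endothelial cells. None of the 7 measured ephrins and Eph receptors passed 2-fold in all 3 libraries, and the median log2 ratio was 0.37. Unc5b, a netrin receptor, was at 115, 166 and 142 CPM in arterial cells and 70.8, 49.1 and 47.1 CPM in other endothelial cells.

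The neuropilins, co-receptors for class 3 semaphorins and VEGF, went separate ways. Nrp1 was at 791, 600 and 812 CPM in arterial cells and 879, 783 and 911 CPM in other endothelial cells. Nrp2, best known from veins and lymphatics, was at 153, 143 and 126 CPM in arterial cells and 335, 384 and 325 CPM in other endothelial cells, ratios of 0.457, 0.373 and 0.387. The guidance genes, listed without the rule gene Sema3g, had a median log2 ratio of -0.19. Of 12 measured, 0 were higher and Nrp2 was the 1 lower by the 2-fold description. Vegfc, a growth factor, was at 136, 80.5 and 171 CPM in arterial cells and 48.4, 80.6 and 76.5 CPM in other endothelial cells, so its 2 classes were level in the Lin28+/cKit- library. Bmx, a tyrosine kinase, went against its marker status in the Lin28-/cKit- library, with 12.8 CPM in arterial cells and 40.04 CPM in other endothelial cells. With 12, 10 and 12 arterial UMIs it was at 20.9 and 44.7 CPM in the arterial cells of the 2 Lin28+ libraries and 27.1 and 9.12 CPM in their other endothelial cells.

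**Figure D2:**
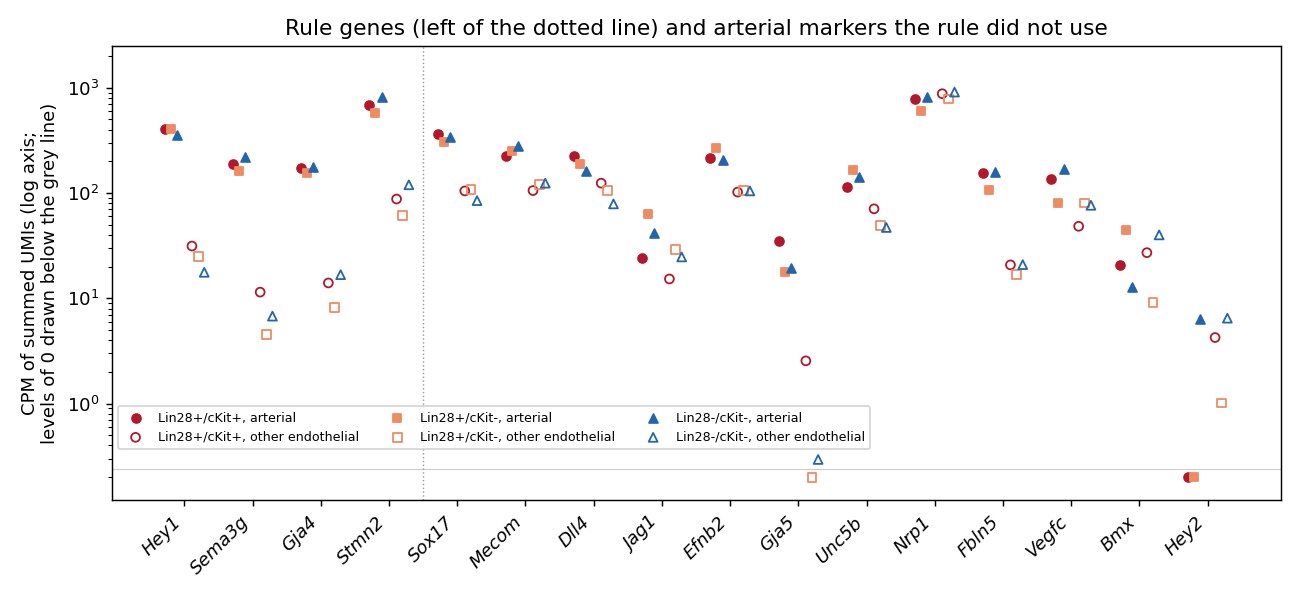
CPM of summed UMIs (vertical log axis, levels of 0 drawn below the grey line) for the 4 rule genes and 12 arterial markers, with filled points for arterial and open points for other endothelial cells of each library. Sox17, Mecom, Efnb2 and Fbln5 keep the arterial points of all 3 libraries above every open point, whereas Nrp1 overlaps.

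The 12 genes farthest above the other endothelial cells were of several kinds. Nebl, nebulette, an actin-binding protein known from heart muscle (chromosome 2, 17343909-17731464, minus strand), was at 69.6, 53.7 and 86.5 CPM in arterial cells and 2.97, 1.01 and 6.48 CPM in other endothelial cells. Alox12, an arachidonate lipoxygenase (chromosome 11, 70241457-70255353, minus strand), was at 78.3, 71.6 and 105 CPM in arterial cells and 5.51, 0.507 and 7.65 CPM in other endothelial cells. Both had under 20 UMIs in the pair of the Lin28+/cKit- library. Alpl, the tissue-nonspecific alkaline phosphatase (chromosome 4, 137741733-137796384, minus strand), was at 282, 192 and 292 CPM in arterial cells and 29.3, 21.8 and 27.97 CPM in other endothelial cells. Its ratios of 9.63, 8.83 and 10.4 were among the steadiest, and it was seen in 60, 19 and 131 arterial cells.

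Fbln5, fibulin 5, an elastic fibre protein of the vessel wall and one of the arterial markers (chromosome 12, 101746565-101819055, minus strand), was at 155, 107 and 159 CPM in arterial cells and 20.8, 16.7 and 20.9 CPM in other endothelial cells. Capillary cells had 0.845, 1.02 and 13.8 CPM of it, and the fibroblast-rich remainder of the Lin28-/cKit- library had 210 CPM. Col8a1, a short-chain collagen, was at 52.2, 58.2 and 86.5 CPM in arterial cells and 9.75, 12.7 and 16.5 CPM in other endothelial cells. Fbln5 was the 1 of 20 measured genes of vessel wall matrix higher by the 2-fold description, with 0 lower and a median log2 ratio of -0.24.

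St8sia6, a sialyltransferase, was at 74.8, 85.0 and 91.8 CPM in arterial cells and 10.6, 18.7 and 11.8 CPM in other endothelial cells. Cox4i2, an alternative subunit of cytochrome c oxidase, was at 76.5, 139 and 130 CPM in arterial cells and 22.1, 19.3 and 14.7 CPM in other endothelial cells, and its geometric mean ratio was 3.99 without the mixed cells and 6.53 without the mural-rich cells of both classes, against 6.05 with all cells. Glul, glutamine synthetase, was at 106, 161 and 142 CPM in arterial cells and 27.99, 23.8 and 41.5 CPM in other endothelial cells. Rgs10, a regulator of G protein signalling, was at 64.4, 62.6 and 57.7 CPM in arterial cells and 19.9, 13.2 and 10.6 CPM in other endothelial cells. Cdk19, a kinase of the Mediator complex, was at 136, 121 and 154 CPM in arterial cells and 32.2, 39.5 and 35.9 CPM in other endothelial cells. None of these 5 had classes that overlapped across the 3 libraries.

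In a pair of these genes most arterial UMIs lay in the mixed cells. Tpm2, a tropomyosin of smooth muscle, had 47, 12 and 76 UMIs in arterial cells, of which 42, 11 and 74 lay in mixed cells. Its geometric mean ratio was 7.54 with all cells and 1.38 without the mural-rich cells of both classes, where it was below 1 in the Lin28-/cKit- library (0.369) and rested on a handful of UMIs. Rgs5, a pericyte gene, was at 577, 1338 and 599 CPM in arterial cells and 235, 373 and 85.7 CPM in other endothelial cells, with 245 of 332, 281 of 299 and 453 of 561 UMIs in mixed cells. Its ratio was 3.95 with all cells and 1.84 without the mural-rich cells of both classes, at 1.85, 1.05 and 3.22 in the 3 libraries. Removing the mixed cells from the arterial side alone gave 0.694 for Tpm2 and 0.736 for Rgs5, values that this one-sided removal lowers by its construction. Of 5 measured pericyte markers, 3 were higher by the 2-fold description and none lower (0.773% and 0.661% over all genes). They were Rgs5, Pdgfrb and Higd1b. The same one-sided removal took Pdgfrb from 3.37 to 0.679 and Higd1b from 5.08 to 0.864. Leaving out the mixed cells gave 54 genes higher and 65 lower by that description, of which 45 and 31 were among the 62 and 53 found with them. Leaving out the mural-rich cells of both classes gave 56 higher and 46 lower.

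**Figure D3:**
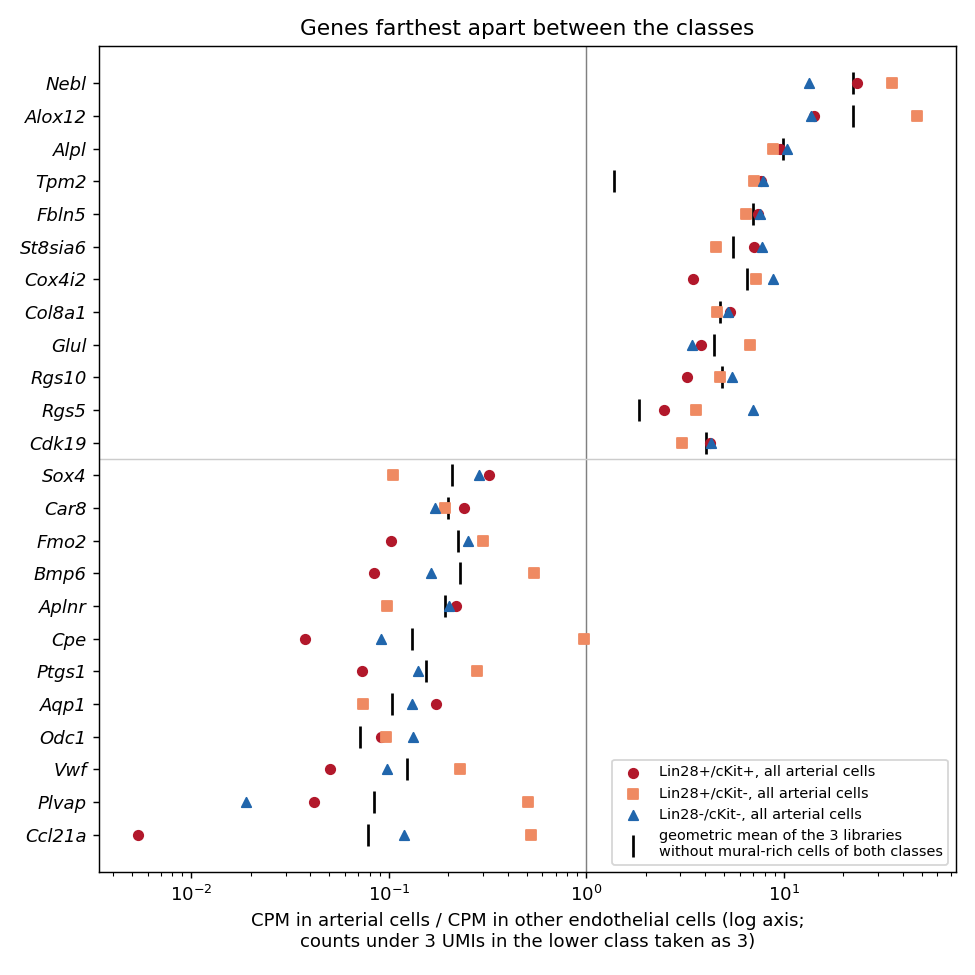
CPM in arterial cells over CPM in other endothelial cells (horizontal log axis) for the 12 genes farthest apart in each direction, with 1 point per library and a black bar for the geometric mean without the mural-rich cells of both classes. The bars of Tpm2 and Rgs5 lie nearer to 1 (1.38 and 1.84) than their points, while those of Nebl, Alox12, Alpl and Fbln5 lie among theirs.

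A pair of abundant genes also stood above the other endothelial cells. Cxcl12, the chemokine that binds Cxcr4 (chromosome 6, 117168535-117181367, plus strand), was at 3557, 3110 and 4138 CPM in arterial cells and 1406, 1261 and 1512 CPM in other endothelial cells. It was the 1 of 13 measured chemokine and adhesion genes higher by the 2-fold description. Rbp7, a retinol-binding protein, was chosen after its values were seen and was at 4613, 4112 and 4032 CPM in arterial cells and 1682, 1464 and 1520 CPM in other endothelial cells. Its ratios of 2.74, 2.81 and 2.65 varied little between libraries. Both genes were graded over the types: Rbp7 was at 2325, 2024 and 2454 CPM in capillary cells, 1101, 771 and 1240 CPM in Lrg1 Col13a1 cells and 114, 138 and 110 CPM in endocardial cells. Plat, the tissue plasminogen activator, was at 150, 103 and 139 CPM in arterial cells and 43.7, 36.0 and 57.4 CPM in other endothelial cells. Igfbp3, which binds insulin-like growth factors, was at 202, 219 and 173 CPM in arterial cells and 78.0, 57.8 and 74.5 CPM in other endothelial cells.

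The upstream 250 bases of 4 of these genes are shown because RBPJ, the DNA-binding factor of Notch, is a textbook candidate for genes that are higher together in arterial cells. Sema3g and Gja4 are the rule genes with an entry in the RefSeq promoter table of GRCm38.p6, and Alox12 and Fbln5 are genes outside the rule that hold the core of the RBPJ motif. That core, TGGGAA on either strand, is in capitals, and appears as TTCCCA where it lies on the opposite strand.
Sema3g, chr14:31217623-31217872, plus strand: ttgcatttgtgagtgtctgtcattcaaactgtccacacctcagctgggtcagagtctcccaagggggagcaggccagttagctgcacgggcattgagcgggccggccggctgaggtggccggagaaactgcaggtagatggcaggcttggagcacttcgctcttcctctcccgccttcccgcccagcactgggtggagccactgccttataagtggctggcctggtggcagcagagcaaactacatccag
Gja4, chr4:127314040-127314289, minus strand: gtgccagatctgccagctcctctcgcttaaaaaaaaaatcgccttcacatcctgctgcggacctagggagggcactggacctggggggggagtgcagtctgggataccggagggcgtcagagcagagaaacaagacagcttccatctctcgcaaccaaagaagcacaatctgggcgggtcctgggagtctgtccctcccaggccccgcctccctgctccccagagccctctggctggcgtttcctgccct
Alox12, chr11:70255371-70255620, minus strand: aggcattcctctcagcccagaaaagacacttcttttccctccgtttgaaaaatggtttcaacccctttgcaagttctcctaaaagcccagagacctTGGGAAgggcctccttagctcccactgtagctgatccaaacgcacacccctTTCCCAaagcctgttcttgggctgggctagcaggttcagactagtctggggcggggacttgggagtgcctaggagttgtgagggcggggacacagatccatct
Fbln5, chr12:101819120-101819369, minus strand: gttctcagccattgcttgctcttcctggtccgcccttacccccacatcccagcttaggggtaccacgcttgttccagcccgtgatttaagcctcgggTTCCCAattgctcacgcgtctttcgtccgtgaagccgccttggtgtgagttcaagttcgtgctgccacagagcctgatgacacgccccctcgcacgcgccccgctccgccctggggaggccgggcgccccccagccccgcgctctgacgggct
The core occurred 2 times before Alox12, 1 time before Fbln5 and 0 times before Sema3g and Gja4. It was present in 7094 of 32851 such windows of all RefSeq promoters (21.6%). For the 12 genes farthest above the other endothelial cells it was in 3 of 15 windows of 10 matched genes (20%), and for the 12 farthest below in 2 of 8 windows of 7 matched genes (25%). These shares lie beside the one of all promoters, and the match describes letters in a window, not a bound site. Hey1, Stmn2 and Sox17 were not in the table.

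Among the 12 genes farthest below the other endothelial cells were a water channel, enzymes and venous markers. Aqp1, a water channel (chromosome 6, 55336432-55348555, plus strand), was at 219, 116 and 159 CPM in arterial cells and 1260, 1577 and 1215 CPM in other endothelial cells. Capillary cells had 1426, 1711 and 1482 CPM of Aqp1, and Lrg1 Col13a1 cells had 1756, 1862 and 1703 CPM. Odc1, the rate-limiting enzyme of polyamine synthesis, was at 22.6, 31.3 and 34.2 CPM in arterial cells and 248, 324 and 258 CPM in other endothelial cells. Car8, a carbonic anhydrase relative without that activity, was at 40.004, 40.3 and 36.3 CPM in arterial cells and 166, 208 and 213 CPM in other endothelial cells. These 3 genes were low in every library, and arterial and other endothelial values did not overlap.

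Venous markers had a median log2 ratio of -2.28, with 2 of 8 measured lower by the 2-fold description and 0 higher. The 2 were Vwf and Aplnr. Vwf, the clotting factor carrier, was at 8.70, 40.3 and 44.9 CPM in arterial cells and 173, 176 and 458 CPM in other endothelial cells, where endocardial cells held 1104, 1020 and 1946 CPM and capillary cells 2.53, 3.07 and 20.7 CPM. Aplnr, the apelin receptor, was at 26.1, 4.47 and 26.7 CPM in arterial cells and 120, 137 and 132 CPM in other endothelial cells. Its ligand Apln had 1, 0 and 1 UMIs in arterial cells and 77, 62 and 80 UMIs in other endothelial cells. Apln, Aplnr and Adm, the hormone adrenomedullin, were the 3 of 11 measured sprouting genes that were lower, Igfbp3 was the 1 that was higher, and the median log2 ratio was -0.64. Adm had 2, 1 and 7 UMIs in arterial cells and 138, 71 and 130 UMIs in other endothelial cells.

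Of the 12 lower genes 4 did not pass 2-fold in the Lin28+/cKit- library, and for Ccl21a, Cpe and Plvap most of the arterial UMIs there lay in mixed cells. Ccl21a, a chemokine of lymphatic vessels whose reads cannot be told apart from its near-identical copies, was at 1.74, 421 and 45.9 CPM in arterial cells and 970, 798 and 383 CPM in other endothelial cells. All 94 arterial UMIs of the Lin28+/cKit- library and 38 of 43 of the Lin28-/cKit- library lay in mixed cells. Cpe, a carboxypeptidase, was at 6.96, 121 and 21.4 CPM in arterial cells and 184, 124 and 235 CPM in other endothelial cells, with 25 of the 27 UMIs of the Lin28+/cKit- library in mixed cells. Plvap, a protein of endothelial diaphragms, was at 3.48, 26.8 and 1.07 CPM in arterial cells and 126, 53.2 and 170 CPM in other endothelial cells. Bmp6, a bone morphogenetic protein, was at 8.70, 49.2 and 13.9 CPM in arterial cells and 103, 90.2 and 85.4 CPM in other endothelial cells, with 3 of its 11 UMIs of the Lin28+/cKit- library in mixed cells. In that library the ratios of Cpe, Plvap and Bmp6 were 0.176, 0.409 and 0.643 without the mixed cells. Ptgs1, a cyclooxygenase, Fmo2, a flavin monooxygenase, and Sox4, a transcription factor, completed the 12, at 0.0728 to 0.322 of the other endothelial level over the 3 genes and 3 libraries.

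Capillary markers outside the rule did not set the arterial cells apart from the other endothelial cells, which pool capillary cells with the remaining types. The 10 measured had a median log2 ratio of -0.01, with 0 higher and 0 lower. Cd36, the fatty acid transporter, was at 2451, 2716 and 2158 CPM in arterial cells and 2447, 3329 and 2306 CPM in other endothelial cells, of which capillary cells held 3058, 3869 and 3248 CPM. Fabp5, an intracellular fatty acid carrier, was at 941, 703 and 881 CPM in arterial cells and 1908, 1432 and 1988 CPM in other endothelial cells. It was the 1 of 11 measured genes of fatty acid handling that was lower, and 0 were higher. Tcf15, a transcription factor of capillary endothelium, was at 696, 600 and 713 CPM in arterial cells and 511, 456 and 443 CPM in other endothelial cells.

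**Figure D4:**
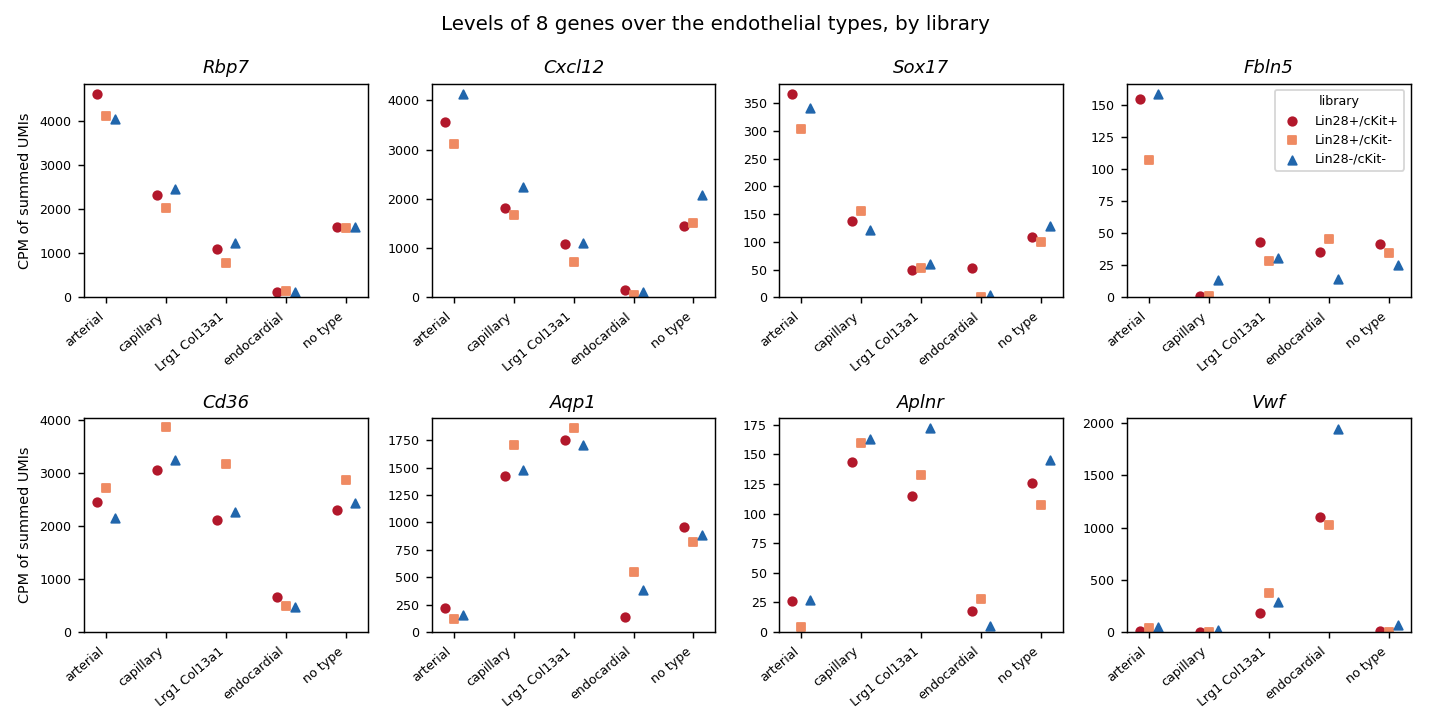
CPM of summed UMIs (vertical axes, each from 0) of 8 genes over arterial, capillary, Lrg1 Col13a1, endocardial and untyped endothelial cells, with 1 point per library. Rbp7, Cxcl12, Sox17 and Fbln5 are highest in arterial cells in all 3 libraries, Aqp1 and Aplnr are low there, and Cd36 lies beside the Lrg1 Col13a1 cells.

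Levels within the class by the number of rule genes detected are a description, since both the steps and the genes farthest apart come from the rule. Leaving out the mixed cells, the summed level of 10 of the 12 genes farthest above (without Tpm2 and Rgs5) was 766, 936, 1436 and 1885 CPM in cells with 1, 2, 3 and 4 rule genes. The 12 other arterial markers summed to 2171, 2095, 2436 and 3008 CPM over the same steps, lowest at 2 genes. The 12 genes farthest below summed to 689, 302, 350 and 132 CPM, and capillary markers to 26345, 27619, 23082 and 17684 CPM. Depth moved with these steps, at medians of 2958, 3758, 4357 and 5371.5 UMIs, and its part was not tested. With the mixed cells included, mural markers moved as well, at 417, 916, 1169 and 2185 CPM, against 161, 188, 202 and 155 CPM without them.

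Clustering of all endothelial cells put 279 of the 382 members (73.0%) into 3 clusters in which members were the majority. The rule genes were not left out of the clustering, and the 3 clusters were picked by their members. Their overlap with the rule is thus a description and no independent support. These clusters held 393 cells, so 71.0% of their cells were members. Of the cells with 1, 2, 3 and 4 rule genes detected, 51.9%, 70.2%, 87.5% and 98.2% lay in them. The largest of them was nearly of 1 library, with 218 of its 220 cells from the Lin28-/cKit- library. The second held 109, 34 and 6 cells of the 3 libraries and the third 7, 5 and 12 cells.

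Between the sorts, a gene was called between 2 libraries at a ratio of at least 1.5 either way, with a 95% interval that left out 1 and at least 20 UMIs in the pair. The 3 pairs share libraries and are not independent of each other. In arterial cells of the Lin28+/cKit- library against those of the Lin28-/cKit- library, 244 of 6304 measured genes were called higher (3.87%) and 219 lower (3.47%). In the Lin28+/cKit+ library against the Lin28+/cKit- library, 143 of 5093 were called higher (2.81%) and 212 lower (4.16%). In the Lin28+/cKit+ library against the Lin28-/cKit- library, 172 of 7033 were called higher (2.45%) and 254 lower (3.61%). Without the mixed cells, 198 genes were called higher and 168 lower in the first pair, of which 106 and 96 were also called with them. In the second pair 111 were higher and 162 lower, of which 64 and 74 were also called with them, so 34.9% of the lower calls recurred. In the third pair 158 were higher and 261 lower, of which 125 and 183 were also called with them.

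The 4 rule genes chose the cells, so their levels in the 3 libraries stay a description. Of 11 measured arterial markers, Bmx was called higher and Vegfc lower in the first pair, Jag1 lower in the second, and none in the third, counts too small to set apart from the shares over all genes. None of these 3 calls remained without the mixed cells. Nrp1 was then lower in the first pair (0.619) and higher in the second (1.53), and Jag1 was lower in the third (0.232). Sox17, Mecom, Efnb2 and Dll4 were called in none. Vegfc was at 80.5 CPM in the Lin28+/cKit- library and 171 CPM in the Lin28-/cKit- library, on 18 and 160 UMIs.

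Among Notch targets, Nrarp and Hes1 were called. Of 7 Notch targets and modulators measured in the first pair, 1 was called higher and 1 lower (3.87% and 3.47% over all genes). Without the mixed cells 1 of these 7 was higher and 0 lower, beside 198 and 168 of 5697 over all genes. These counts are too small to set apart from the shares over all genes. Nrarp was at 181 CPM in the Lin28+/cKit+ library and 67.1 CPM in the Lin28+/cKit- library, on 104 UMIs in 45 cells and 15 UMIs in 12 cells. The ratio was 2.70 (95% interval 1.56 to 4.99), and 2.35 without the mixed cells, against 1.10 in other endothelial cells. Against the 119 CPM of the Lin28-/cKit- library, the Lin28+/cKit+ library had a Nrarp ratio of 1.53 (1.16 to 2.01). Hes1 had the opposite order, with 600 CPM in the Lin28+/cKit- library and 285 CPM in the Lin28-/cKit- library, a ratio of 2.10 (1.70 to 2.60). Other endothelial cells showed the same for Hes1, at 1.84. Sox18 likewise was at 474 CPM in the Lin28+/cKit- library and 229 CPM in the Lin28-/cKit- library, a ratio of 2.08 (1.63 to 2.63), against 2.35 in other endothelial cells. The values of Hes1 and Sox18 are with the mixed cells. Whether arterial and other endothelial cells differ in the ratios of Nrarp, Hes1 and Sox18 was not tested.

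Icam1, the leukocyte adhesion molecule, was higher in the arterial cells of both Lin28+ libraries. It was at 148 CPM in the Lin28+/cKit+ library, 197 CPM in the Lin28+/cKit- library and 70.5 CPM in the Lin28-/cKit- library. The ratio to the Lin28-/cKit- library was 2.10 (95% interval 1.503 to 2.94) for Lin28+/cKit+ and 2.79 (1.86 to 4.15) for Lin28+/cKit-, and 2.45 and 2.47 without the mixed cells. In other endothelial cells the same ratios were 1.11 and 1.22. Icam1 was seen in 33, 12 and 33 arterial cells. Spr, sepiapterin reductase, which makes a cofactor of nitric oxide synthase, was at 90.4 CPM in the Lin28+/cKit+ library, 22.4 CPM in the Lin28+/cKit- library and 107 CPM in the Lin28-/cKit- library. Its low value rested on 5 UMIs.

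For interferon-driven genes single cells held much of the UMIs. Rsad2, an antiviral enzyme, was at 125, 17.9 and 43.8 CPM, and 38 of the 72 UMIs of the Lin28+/cKit+ library came from 1 cell. Isg15, a ubiquitin-like protein, was at 165, 44.7 and 124 CPM, and 31 of the 95 UMIs of the Lin28+/cKit+ library came from 1 cell. Of 19 measured genes of interferon response and antigen presentation, 4 were called higher and none lower in Lin28+/cKit+ against Lin28+/cKit- (2.81% and 4.16% over all genes), with a median log2 ratio of 0.09. They were Ifit1, Isg15 and the antigen presentation genes H2-Ab1 and Cd74. Cd74 was at 12081 CPM in the non-endothelial cells of the Lin28+/cKit+ library and 8799 CPM in those of the Lin28+/cKit- library, and the part of these cells' RNA was not tested. Without the mixed cells 4 of 18 were called higher and 0 lower, beside 111 and 162 of 4317 over all genes. The median log2 ratio, however, was then -0.09. Ube2m, Wasl, Pdcl3 and Sh2d3c were also among the 8 genes with the largest ratios in that pair, at 2.37 to 4.02. They rested on 6, 10, 13 and 10 arterial UMIs in the Lin28+/cKit- library. In other endothelial cells Ube2m and Pdcl3 ran the same way, and Wasl and Sh2d3c the other way.

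Immediate early genes respond within minutes to many stimuli. Of 23 measured, 10 were called higher and none lower in the Lin28+/cKit- library than in the Lin28-/cKit- library (3.87% and 3.47% over all genes), with a median log2 ratio of 0.47, against -0.03 over all genes. Without the mixed cells 3 of 22 were called higher, Fosb, Zfp36 and Dusp1, and none lower, with a median of 0.28. Over all genes 198 of 5697 were then called higher and 168 lower. Fosb, an AP-1 subunit, was at 494, 796 and 384 CPM in the 3 libraries. Its ratio in this pair was 2.07 (95% interval 1.72 to 2.49) with the mixed cells and 2.11 without them. Zfp36, which destabilises mRNA, was at 579, 998 and 358 CPM, with a ratio of 2.79 (2.34 to 3.31), and 1.94 without the mixed cells. Atf3, a stress-induced transcription factor, was at 341, 667 and 226 CPM, with a ratio of 2.94, and 1.12 without them. In Lin28+/cKit+ against Lin28-/cKit-, 2 of 23 were called higher and none lower (2.45% and 3.61% over all genes), with a median log2 ratio of 0.32. That pair had 4 of 22 called higher and 1 lower without the mixed cells, with a median of 0.33. Over all genes 158 of 6596 were then called higher and 261 lower. Whether the 2 pairs differ was not tested.

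**Figure D5:**
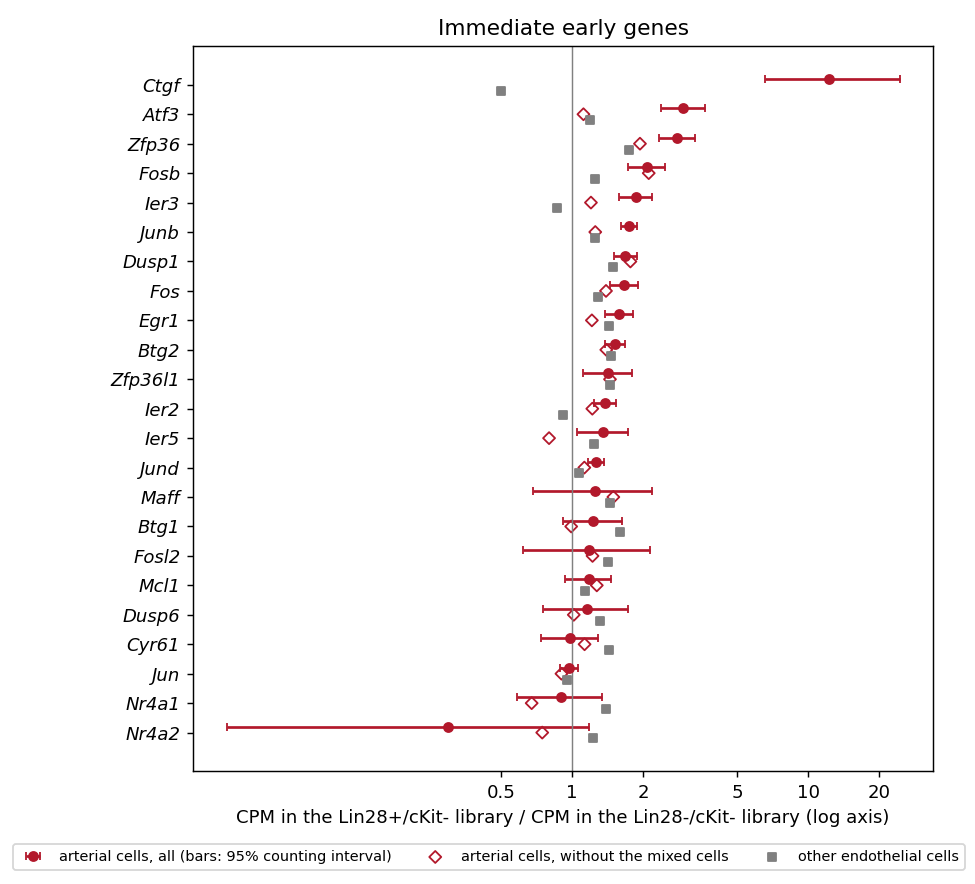
Ratio of CPM in the Lin28+/cKit- library to CPM in the Lin28-/cKit- library (horizontal log axis) for the 23 measured immediate early genes, in all arterial cells (filled points, 95% counting intervals), without the mixed cells (diamonds, for the 22 still measured) and in other endothelial cells (squares). Atf3, Ier3 and Junb move toward 1 without the mixed cells, and Fosb and Dusp1 stay.

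Heat shock genes had 1 of 20, 1 of 19 and 0 of 20 called higher in the 3 pairs (3.87%, 2.81% and 2.45% over all genes), and none lower. The counts were 1 of 19, 2 of 19 and 1 of 20 without the mixed cells. Over all genes they were then 198 of 5697, 111 of 4317 and 158 of 6596. The inducible Hspa1b, whose reads may be shared with its copy Hspa1a, was at 871, 1284 and 650 CPM in the 3 libraries. Of the genes that the study's interest in stress and senescence points to, Cdkn1a, the cell cycle inhibitor p21, was at 311, 506 and 310 CPM. It was called higher in Lin28+/cKit- than in Lin28-/cKit- at 1.63 (95% interval 1.30 to 2.04), and was 1.33, and not called, without the mixed cells. Cdkn2a had 0, 0 and 1 UMIs, and Glb1, the lysosomal galactosidase behind a senescence stain, had 2, 0 and 10 UMIs. G3bp1, a core stress granule protein, was at 172, 116 and 146 CPM. None of 19, 18 and 20 measured stress granule genes was called in the 3 pairs. Without the mixed cells 1 of 17 was lower in the second, beside 162 of 4317 over all genes. Kit, which encodes the receptor used in the sort, had 3, 5 and 1 UMIs in arterial cells (5.22, 22.4 and 1.07 CPM), against 22.1, 23.8 and 22.1 CPM in other endothelial cells.

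Markers of macrophages and fibroblasts differed between the arterial cells of the Lin28+ libraries and those of the Lin28-/cKit- library. Lyz2, a lysozyme of macrophages, was at 275, 246 and 4.27 CPM in arterial cells, 275, 180 and 17.7 CPM in other endothelial cells and 9010, 8280 and 73.7 CPM in non-endothelial cells. Cxcl2, an inflammatory chemokine, was at 337, 170 and 7.48 CPM in arterial cells. Cd74, of antigen presentation, was at 292, 107 and 24.6 CPM, and C1qa, a complement protein of macrophages, at 165, 94.0 and 1.07 CPM. Gsn, gelsolin, abundant in fibroblasts, was at 20.9, 17.9 and 1327 CPM in arterial cells, 14.0, 23.3 and 1308 CPM in other endothelial cells and 444, 2373 and 27870 CPM in non-endothelial cells. In Lin28+/cKit- and in Lin28+/cKit+ against Lin28-/cKit-, 3 and 6 of 10 macrophage markers were measured. All of these were called higher (3.87% and 2.45% over all genes). Of 10 fibroblast markers 9 were measured in each pair. Of these 7 and 9 were called lower (3.47% and 3.61% over all genes) and none higher. Macrophage markers summed to only 33.1 CPM in the arterial cells of the Lin28-/cKit- library. Most could therefore reach the minimum of UMIs only where the Lin28+ library was high. Fibroblast markers in turn summed to 2582 CPM in the arterial cells of the Lin28-/cKit- library. In those of the Lin28+/cKit+ and Lin28+/cKit- libraries they summed to 50.4 and 483 CPM. Most of them could likewise reach the minimum only where the Lin28-/cKit- library was high. The counts of both marker sets are thus a description and no test. The part of free RNA in the differences of both marker sets was not tested. Igfbp5, which binds insulin-like growth factors, was at 29.6, 40.3 and 238 CPM, and 112 of its 223 UMIs in the Lin28-/cKit- library came from 1 cell.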

How the data were processed

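Per the labels' protocols, libraries were made with the Chromium Single Cell 3' v3.1 kit, and the submitters' processing notes name Cell Ranger, mm10 and Seurat 4.0.2. The authors deposited natural log values, the ln of 1 plus a gene's UMIs per 10000 UMIs of its cell. Whole UMIs were recovered for 100% of values within 0.01, and the plan, which had assumed counts, was run on them. The libraries held 10400648, 7401174 and 34031955 UMIs, and no cell had under 500. How cells were filtered before deposit is not given in the sources used here. Members were found by the stated rule on the ln values. The members and lists were chosen with earlier results of these data known, so no list is independent support.

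UMIs were summed per class and library and scaled to CPM, with exact Poisson intervals. Ratios carry exact conditional binomial intervals and shares Clopper-Pearson intervals (95%, counting error only; scipy 1.17.1). UMIs of PCR-amplified droplets stand for molecules, and sampling of cells is not in the intervals. A count under 3 in the lower class was taken as 3 for means of ratios. Named genes were the 12 farthest apart in each direction between classes (at least 50 CPM in the higher class) and the 8 farthest apart per pair of libraries (in the higher library, 100 CPM and 30 UMIs or more), with list members and marker genes, and some of them are not reported here. Scrublet marked 0.765%, 1.47% and 0.176% of cells, 0 of them members, and was not counted as having worked, so no doublet was removed. Clustering used scanpy 1.11.5 and leidenalg 0.10.2. Scripts were checked on simulated counts. Lin28a and Lin28b were not analysed here. Alternatives changed the rule, the cells, the minimum UMIs and the way of averaging.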

Additional observations from a re-analysis of the deposited data

Results flagged for a closer look

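These genes went one way between libraries in arterial cells and the other way in other endothelial cells, and the difference was not tested. In Lin28+/cKit- against Lin28-/cKit- the arterial log2 ratios were 3.62 for Ctgf and 2.55 for Vcam1. Of their arterial UMIs in the Lin28+/cKit- library, 1 cell held 38 of 41 for Ctgf and 46 of 46 for Vcam1, and these cells were mixed cells. In Lin28+/cKit+ against Lin28+/cKit- the log2 ratios were -5.30 for Vcam1 (on 3 UMIs in the Lin28+/cKit+ library, a ratio of 0.0254 with a 95% interval of 0.00504 to 0.0789), -5.15 for Dcn and -2.62 for Mgp. Cytl1 had 0 UMIs in the Lin28+/cKit+ library, so its -4.78 is a bound, taken at 3 UMIs. In the Lin28+/cKit- library 1 cell held 67 of the 83 UMIs of Dcn, 31 of the 32 of Cytl1 and 125 of the 215 of Mgp.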

How the results depend on the processing

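Of the recomputed counts and shares, 127 stayed within their limits and 26 did not. Raising the arterial mean z-score to 0.5 gave shares of 13.7%, 8.70% and 17.5%. Asking for at least 2 rule genes gave 15.8%, 9.40% and 19.5%, of which the Lin28+/cKit- value stayed within its limits. A single cluster with the most members gave 0.211%, 0.362% and 22.1%, and left too few cells in the Lin28+ libraries for the other results. Genes past 2-fold in all 3 libraries were 30 higher and 25 lower with the rule on thinned cells, 106 lower with the 3 clusters mostly of members, 35 higher at 50 UMIs and 108 higher at 1 UMI. A mean over cells gave calls of 372 higher and 448 lower, 276 higher and 373 lower, and 505 lower in the 3 pairs, in the order of the report. A minimum of 50 UMIs gave 154, 92 and 106 higher and 141, 99 and 125 lower, and 1 UMI gave 354 lower in the second pair and 283 higher in the third.

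Some log2 ratios changed sign, and the cause was not tested. In Lin28+/cKit- against Lin28-/cKit-, the first pair, Igfbp5 was 0.76 at a mean z-score of 0.5, 0.45 without Stmn2 in the rule, 0.49 with the clusters and 0.082 with 2 rule genes, and on thinned cells it was 1.27 in the third pair. The rule on thinned cells gave -0.47 for Ctgf and -1.78 for Vcam1 in the first pair, and 1.19 for Vcam1, 1.03 for Dcn, 2.54 for Cytl1, 0.51 for Ctgf and 3.03 for Mgp in the second. The clusters gave -0.18 for Ctgf and -0.79 for Vcam1 in the first pair. At least 2 rule genes gave -0.074 for Ctgf in the first pair. Without the mixed cells Tpm2 was -0.53 and Rgs5 -0.44 against other endothelial cells, and the first pair gave -0.88 for Vcam1, -0.48 for Phlda1 and 1.00 for Acta2. Without the mural-rich cells of both classes it gave -0.66 for Phlda1 and 0.59 for Acta2, and Tpm2 and Rgs5 kept their direction. Counts under 3 UMIs on the lower side were taken as 3, so such ratios are bounds. The clusters, the 2-gene rule and both removals of cells were chosen after seeing the data. No paired analysis was possible because there is 1 library per group and the labels give no replicate numbers. The 35 arterial cells of the Lin28+/cKit- library limit every comparison with it.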
